A study of Mus musculus with 3 samples.

Results

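Decorin (Dcn), biglycan (Bgn), lumican (Lum), osteoglycin (Ogn), versican (Vcan), periostin (Postn), Sparc and Sparcl1 encode secreted proteins of the extracellular matrix, and their UMI counts are described here in thawed fetal ovarian somatic cells (FOSCs). The 8 genes were chosen by name out of 18738 genes listed, with earlier results of these data known. They are 4 small leucine-rich proteoglycans, 1 large proteoglycan and 3 matricellular proteins. Each was summed per cell type and lot as CPM, the gene's UMIs relative to all UMIs of the same cells on the usual CPM scale, and as the share of cells with at least 1 UMI. The samples are lots 26, 29 and 30, all of 1 condition, and each lot came from the E12.5 embryos of 10 pregnant CD1 mice with no further treatment or allele. Gonads were freed of mesonephros by hand, pooled and dissociated with trypsin, and cells bearing SSEA1 (germ cells) or CD31 (endothelial cells) were depleted on a magnetic column before freezing. Cells were then thawed and profiled with 10X Genomics 3' chemistry. As pools of many embryos, the lots give n = 3 for every mean, and the freezing and the depletion are shared by all of them. Cells with Y-linked UMIs and Sertoli-like cells (0.149% to 3.32% of a lot) were present in every lot. The paper describes its Sertoli cells as contaminating, and 75.7% to 93.8% of Sertoli-like cells in a lot held Y-linked UMIs.

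Small leucine-rich proteoglycans bind collagen fibrils and set their spacing and width, and they also bind growth factors of the TGF-beta family. Versican is a large chondroitin sulfate proteoglycan that binds hyaluronan and swells a loose, early matrix. Matricellular proteins such as periostin, SPARC and SPARC-like 1 sit in the matrix and change how cells hold on to it rather than bearing load. In the fetal ovary the somatic compartments include pre-granulosa cells, which enclose the germ cells, a surface epithelium and a stroma.

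The kept cells numbered 28971, with a median of 8949 to 11595 UMIs per cell in a lot. They were clustered without the 8 genes and without 89 other matrix genes, so that no class was formed from them, although genes that vary together with them still took part. By marker lists that hold no matrix gene, 13127 cells were pre-granulosa-like, 6038 epithelial-like, 6149 stromal-like, 1471 germ-like, 351 endothelial-like and 390 Sertoli-like. The stromal-like share was 21.3% ± 0.851 (SD, n = 3 lots). Between 20 and 30 barcodes were shared by a pair of lots, at most 0.350% of the smaller lot, and the median r between cells with the same barcode (0.636, 0.694 and 0.630 for lots 26 and 29, 26 and 30, and 29 and 30) was near that of cells paired at random (0.651, 0.666 and 0.636).

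The genes lie at separate places of GRCm38 (GENCODE annotation), except for a pair of neighbours. Dcn (ENSMUSG00000019929) at chr10:97479609-97518143 and Lum (ENSMUSG00000036446) at chr10:97565128-97572703 are both on the plus strand, 47.0 kb apart, and are followed by the related Kera and Epyc. Ogn (ENSMUSG00000021390, chr13:49608046-49624501, plus strand) closes a second row of family genes after Ecm2, Aspn and Omd, and it lies within Cenpp of the opposite strand without a shared exonic base. Bgn (ENSMUSG00000031375) is at chrX:73483602-73495933, plus strand, and Vcan (ENSMUSG00000021614) at chr13:89655312-89742509, minus strand. Postn (ENSMUSG00000027750) is at chr3:54361109-54391037, plus strand, Sparc (ENSMUSG00000018593) at chr11:55394500-55423183, minus strand, and Sparcl1 (ENSMUSG00000029309) at chr5:104079111-104113733, minus strand. None of the 8 shared exonic bases with another annotated gene on either strand.

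Promoters, from 250 bases before to 50 bases after a start site, were taken from RefSeq (GRCm38.p6), which matched 5 of the 8 genes. Dcn, Lum and Sparcl1 are named only. The 3 shown are those of genes that differed plainly in where they were read: Postn and Ogn had most of their UMIs in the stroma, whereas Sparc was read in nearly every somatic cell. Capitals mark matches to TATAAA, found near the start of many regulated genes, on either strand and to CANNTG, the E-box of basic helix-loop-helix factors.
Postn, chr3:54360857-54361156, plus strand: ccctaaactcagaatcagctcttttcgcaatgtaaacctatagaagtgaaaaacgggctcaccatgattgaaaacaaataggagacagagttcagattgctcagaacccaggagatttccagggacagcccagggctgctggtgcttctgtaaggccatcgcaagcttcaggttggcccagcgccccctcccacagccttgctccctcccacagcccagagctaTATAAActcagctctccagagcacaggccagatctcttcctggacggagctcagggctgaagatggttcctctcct
Ogn, chr13:49607765-49608064, plus strand: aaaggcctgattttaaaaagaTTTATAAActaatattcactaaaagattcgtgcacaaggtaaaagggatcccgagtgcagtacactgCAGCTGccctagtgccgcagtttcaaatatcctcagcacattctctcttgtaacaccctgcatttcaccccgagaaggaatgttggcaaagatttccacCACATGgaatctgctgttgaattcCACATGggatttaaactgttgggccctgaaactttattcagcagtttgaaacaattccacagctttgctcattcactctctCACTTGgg
Sparc, chr11:55420031-55420330, minus strand: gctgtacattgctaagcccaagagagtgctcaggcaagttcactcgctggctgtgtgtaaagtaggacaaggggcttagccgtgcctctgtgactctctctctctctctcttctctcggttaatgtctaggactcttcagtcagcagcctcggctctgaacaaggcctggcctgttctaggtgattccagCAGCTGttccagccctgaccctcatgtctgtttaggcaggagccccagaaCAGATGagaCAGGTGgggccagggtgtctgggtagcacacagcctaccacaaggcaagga
The Postn window shown held TATAAA 26 bases before its start and no E-box. A further RefSeq window of Postn, chr3:54359017-54359316 on the plus strand, held neither. The Ogn window held a pair of overlapping TATAAA matches 229 and 227 bases before the start, together with 4 E-boxes, and the Sparc window held 3 E-boxes and no TATAAA. Windows of Vcan and Bgn held 1 E-box each and no TATAAA. Of 32851 mouse promoter windows of the same length, 13.6% held TATAAA and 72.3% held CANNTG. The Sparc start of RefSeq lies inside the GENCODE gene, so this window is the start of a shorter transcript. A match is a description of letters and not of a bound site.

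Decorin, which binds collagen and restrains TGF-beta, was a gene of both stroma and epithelium. In stromal-like cells its level was 372, 306 and 336 CPM in lots 26, 29 and 30 (338 ± 32.6, SD, n = 3), and in epithelial-like cells 204, 188 and 194 CPM (195 ± 8.06). Pre-granulosa-like cells had only 25.1, 16.7 and 21.9 CPM. The lots of these classes did not overlap, and stromal-like cells held 49.3% of all Dcn UMIs and epithelial-like cells 40.7%. A Dcn UMI was found in 47.2% ± 4.44 of stromal-like and 74.9% ± 3.47 of epithelial-like cells, and in 37.1% ± 2.51 and 46.3% ± 0.363 after every cell was thinned to 4000 UMIs. The share and the CPM thus put these classes in opposite orders, and no order is read from the share. Stromal-like cells had median depths of 7751 to 9742 UMIs and epithelial-like cells 11087 to 14614 UMIs.

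Biglycan, the closest relative of decorin, was highest in the stroma. Stromal-like cells had 215, 158 and 214 CPM (196 ± 32.9, SD, n = 3), epithelial-like cells 29.2, 21.8 and 26.1 CPM, and pre-granulosa-like cells 27.0, 19.9 and 28.5 CPM. The lots of the latter classes overlapped each other and lay below every stromal-like value. The next class in order after the stroma was unnamed cluster 15, with leading genes of steroid synthesis, at 126 ± 26.5 CPM, and its lots did not overlap those of the stroma. Y-linked UMIs were found in 65.3%, 65.0% and 75.9% of cluster 15 cells in lots 26, 29 and 30, so it is not read as an ovarian cell type. After thinning, 49.7% ± 5.29 of stromal-like, 9.40% ± 1.51 of epithelial-like and 8.79% ± 1.25 of pre-granulosa-like cells had a UMI of Bgn.

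Lumican, a keratan sulfate proteoglycan of collagen-rich tissue, had 82.9% of its UMIs in stromal-like cells, which made up 21.3% of cells. Its stromal-like level was 84.9, 57.7 and 84.5 CPM (75.7 ± 15.6, SD, n = 3), against 3.45, 2.29 and 3.97 CPM in epithelial-like and 4.22, 1.99 and 3.89 CPM in pre-granulosa-like cells. Every stromal-like lot exceeded every other named class. Osteoglycin, also called mimecan, was read sparsely. Its levels were 14.7, 16.9 and 13 CPM in stromal-like, 4.82, 3.24 and 2.29 CPM in epithelial-like and 0.720, 0.225 and 0.262 CPM in pre-granulosa-like cells. These 3 ranges of Ogn did not overlap, and epithelial-like cells held 22.1% of its UMIs.

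Versican was shared between the stroma and small populations. Stromal-like cells had 148, 142 and 122 CPM (137 ± 13.6, SD, n = 3), Sertoli-like cells 80.2, 99.9 and 163 CPM, and mesonephric-tubule-like cells 58.2, 156 and 132 CPM. The ranges of these classes overlapped, as did those of unnamed clusters 12 and 15, so they had no order beyond their spread. Epithelial-like cells had only 9.22, 8.94 and 9.03 CPM and pre-granulosa-like cells 16.1, 9.64 and 15.3 CPM.

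Periostin, a matricellular protein that binds integrins and collagen, followed the stroma with 77.8, 78.9 and 88.6 CPM (81.8 ± 5.96, SD, n = 3). In epithelial-like cells it had 5.77, 3.95 and 5.16 CPM and pre-granulosa-like cells had 4.08, 2.60 and 3.59 CPM. Stromal-like cells held 80.8% of its UMIs, and every lot of the other large classes was at 5.77 CPM or less. The only range that reached that of the stroma was of neural-crest-like cells (0 to 78.0 CPM), of which there were 42 in all.

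SPARC, a collagen-binding protein that many cells secrete, was found in every class. Its level was 3178 ± 269 CPM in Sertoli-like, 2437 ± 254 CPM in endothelial-like, 1815 ± 120 CPM in stromal-like, 919 ± 54.2 CPM in epithelial-like, 579 ± 42 CPM in pre-granulosa-like and 226 ± 39.6 CPM in germ-like cells (SD, n = 3). By lot, stromal-like cells had 1702, 1802 and 1940 CPM, epithelial-like cells 978, 871 and 908 CPM and pre-granulosa-like cells 605, 530 and 601 CPM. Each step of this order was free of overlap between lots. The highest class, Sertoli-like cells, held Y-linked UMIs in most of its cells. Its relative Sparcl1, also called hevin, split the classes differently: 435, 352 and 469 CPM in stromal-like and 508, 211 and 256 CPM in endothelial-like cells, whose ranges overlapped, against 14.0, 10.3 and 17.9 CPM in epithelial-like and 29.3, 22.3 and 30.5 CPM in pre-granulosa-like cells. Thus Sparc UMIs were spread over classes, with 34.3% in stromal-like cells, whereas 75.5% of Sparcl1 UMIs were there.

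**Figure D1:**
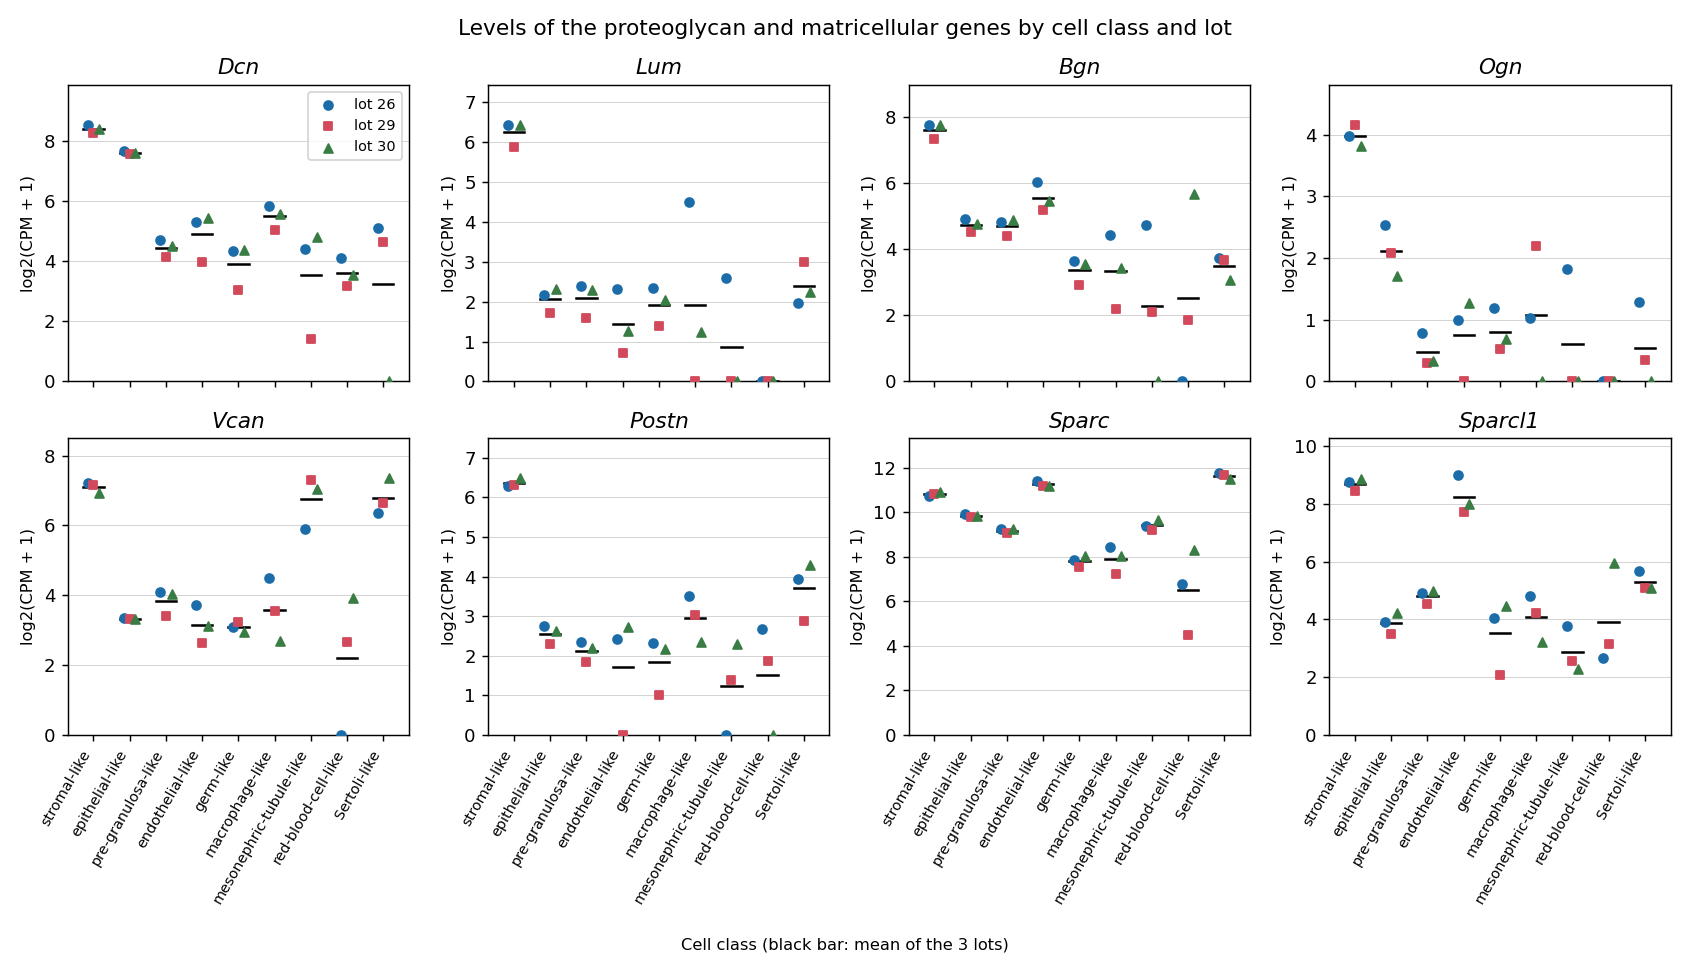
Level of each gene, as log2(CPM + 1), in 9 cell classes, where each marker is 1 lot (blue circle 26, red square 29, green triangle 30) and the black bar is the mean over lots. Lum, Postn and Bgn stand out in stromal-like cells, Dcn is also high in epithelial-like cells, and Sparc is high in most classes.

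**Figure D2:**
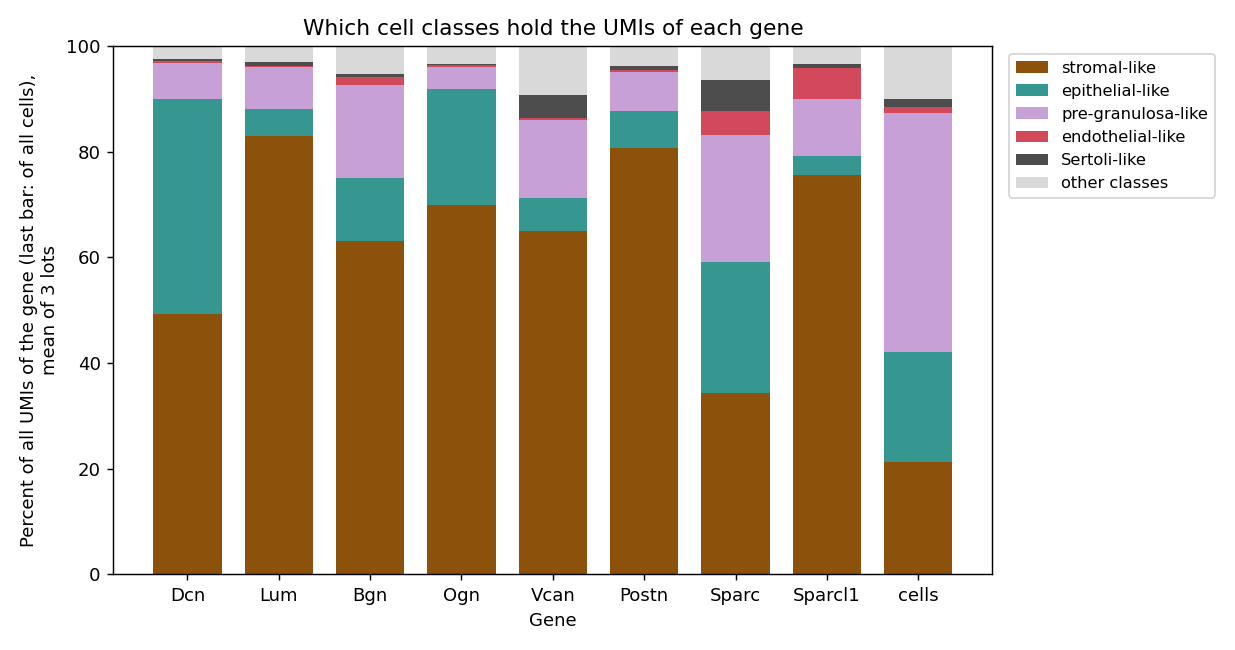
Percent of each gene's UMIs that fell in each class (mean over 3 lots, stacked to the whole), with the share of cells in each class as the last bar. The stromal-like part is 82.9% for Lum and 34.3% for Sparc, against 21.3% of cells.

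Low values had to be read against free RNA, since lysed cells leave UMIs in every droplet. The shares of cells with a UMI in red-blood-cell-like cells (77 cells, median depths of 7490.5 to 11489 UMIs) and germ-like cells (18134 to 23584 UMIs) were taken as that level, after thinning to 4000 UMIs. Dcn was found in 4.61% of pre-granulosa-like, 4.32% of red-blood-cell-like and 3.48% of germ-like cells, and its pre-granulosa-like range of 3.92% to 5.14% overlapped both. Lum was found in 0.905% of pre-granulosa-like and 1.09% of epithelial-like cells against 1.08% of germ-like cells. It had no UMI in 20, 36 and 21 red-blood-cell-like cells, which allows shares of up to 16.8%, 9.74% and 16.1% by the exact Clopper-Pearson 95% interval (intervals cover counting error only).

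Likewise, Sparcl1 in epithelial-like cells (3.68%) did not exceed its share in germ-like or red-blood-cell-like cells (both 4.32%), and Postn in pre-granulosa-like cells (0.681% to 1.35% by lot) overlapped its range in germ-like cells (0.262% to 1.34%). Ogn in pre-granulosa-like cells (0.0852% to 0.180%) lay within its germ-like range (0 to 0.268%). These low values could not be told from background at this depth, and differences from such a class are read with that limit. Bgn, at 8.79% and 9.40% of pre-granulosa-like and epithelial-like cells, stood above 3.36% of germ-like and 1.59% of red-blood-cell-like cells. Ogn in epithelial-like cells as a class (1.1%) exceeded its share in germ-like cells (at most 0.268% in a lot). It was uneven among epithelial-like clusters, with 4.26% in cluster 10. By lot it was 0.601% to 0.702% in cluster 6, 0.369% to 0.602% in cluster 8 and 0 to 0.726% in cluster 4, which overlapped germ-like cells. Thinning left out 27 to 88 stromal-like and 4 to 11 epithelial-like cells of a lot, which were too shallow.

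All 8 genes were higher in stromal-like than in pre-granulosa-like cells when UMI sums per class and lot were tested with edgeR (quasi-likelihood, p adjusted by Benjamini-Hochberg over 13836 genes). Of all genes tested, 49.2% were called in this comparison and 23% were called higher, the members' median log2 fold change was 3.85, and that of all genes was -0.03. The difference was 5.04 on the log2 scale for Ogn (SE 0.34, adjusted p = 2.3e-12), 4.45 for Postn (SE 0.22, adjusted p = 2.3e-15) and 4.35 for Lum (SE 0.32, adjusted p = 1.4e-09). It was 3.88 for Dcn, 3.82 for Sparcl1, 3.21 for Vcan and 2.85 for Bgn, with adjusted p of at most 2.5e-07. The Ogn, Lum, Postn and Dcn levels of pre-granulosa-like cells were not above background, so the sizes of those differences depend on it. Whether the Bgn, Vcan and Sparcl1 levels of pre-granulosa-like cells stood above background was not decided. Sparc had the smallest difference, 1.54 (SE 0.24, adjusted p = 7.2e-06).

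Against epithelial-like cells, again all 8 were higher in stromal-like cells, where 31.8% of all genes were called and 17.5% were called higher, and the members' median was 3.37 against 0.01 over all genes. Sparcl1 differed by 4.84 (SE 0.43, adjusted p = 4.7e-08), Lum by 4.47 (SE 0.33, adjusted p = 3.4e-09), Postn by 3.99, Vcan by 3.87, Bgn by 2.88 and Ogn by 2.07 on the log2 scale. Epithelial-like Sparcl1 and Lum were not above background. Thinned shares of Vcan (2.62% to 2.85%) and Postn (1.33% to 2.43%) overlapped those of germ-like cells (2.10% to 2.68% and 0.262% to 1.34%). The sizes of these differences thus depend on background. The difference of Sparc was 0.93 (SE 0.24, adjusted p = 0.00338), and it missed the threshold without lot 26 (1.0, adjusted p = 0.0516). For Dcn the log2 difference was 0.74 (95% interval 0.28 to 1.21, adjusted p = 0.0197). That call did not hold with DESeq2 (adjusted p = 0.0625), without lot 26 (0.68, adjusted p = 0.212) or without lot 30 (0.74, adjusted p = 0.167).

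Dcn and Ogn were the members with the largest differences between epithelial-like and pre-granulosa-like cells. Dcn was higher in epithelial-like cells by 3.14 on the log2 scale (SE 0.26, adjusted p = 1.6e-09) and Ogn by 2.96 (SE 0.35, adjusted p = 1.1e-07), both from a pre-granulosa-like level not above background. In this comparison 43.8% of genes were called, 18.6% higher and 25.2% lower, and the members gave 3 higher, 2 lower and 3 not called. Sparc was higher by 0.61 (SE 0.24, adjusted p = 0.0407). That call was lost without lot 26 (adjusted p = 0.205), without lot 30 (adjusted p = 0.0672) and without cells that held Y-linked UMIs (adjusted p = 0.0916). The log2 difference itself was 0.58 to 0.67 over all settings. Sparcl1 (-1.02, adjusted p = 0.0362) and Vcan (-0.66, adjusted p = 0.00921) were lower. The call of Sparcl1 was lost with DESeq2 (adjusted p = 0.0732) and with any lot left out (0.191, 0.0725 and 0.0678 without lots 26, 29 and 30), and that of Vcan without lot 30 (0.138). Bgn differed by -0.03 (95% interval -0.49 to 0.43), and Postn by 0.46 (95% interval 0.03 to 0.89, adjusted p = 0.0901, or 0.016 with the lot as a block).

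Several of these low pre-granulosa-like values rested on cluster 16, a group of 368 pre-granulosa-like cells led by Mfap4, Lum, Col1a2 and Col1a1. Scrublet called 76.8%, 90.2% and 83.3% of its cells doublets in lots 26, 29 and 30, and its median depth was 14909 to 19417.5 UMIs. Lum in this cluster was 45.1, 36.7 and 53.0 CPM. Without it, the pre-granulosa-like level of Lum was 1.76, 0.895 and 1.36 CPM and that of Dcn 10.8, 11.6 and 11.1 CPM, both below any value with the cluster for the same lot. Lum then differed between epithelial-like and pre-granulosa-like cells by 1.19 (adjusted p = 0.00776) in place of -0.12 (adjusted p = 0.804), and Postn by 1.19 (adjusted p = 0.0001). Cluster 16 was picked after the data were seen, with Lum among its leading genes, so leaving it out lowers pre-granulosa-like Lum by construction. Called doublets among the epithelial-like cells were kept in this fit, and epithelial-like Lum was not above background. These adjusted p thus cannot decide whether Lum or Postn differs between the classes, and no difference is read from them. The calls of Vcan (-0.36, adjusted p = 0.137) and Sparcl1 (-0.55, adjusted p = 0.25) were lost. The stromal-like cells kept all 8 calls, and against pre-granulosa-like cells without cluster 16 they differed by 4.80 for Dcn, 5.66 for Lum and 6.39 for Ogn.

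**Figure D3:**
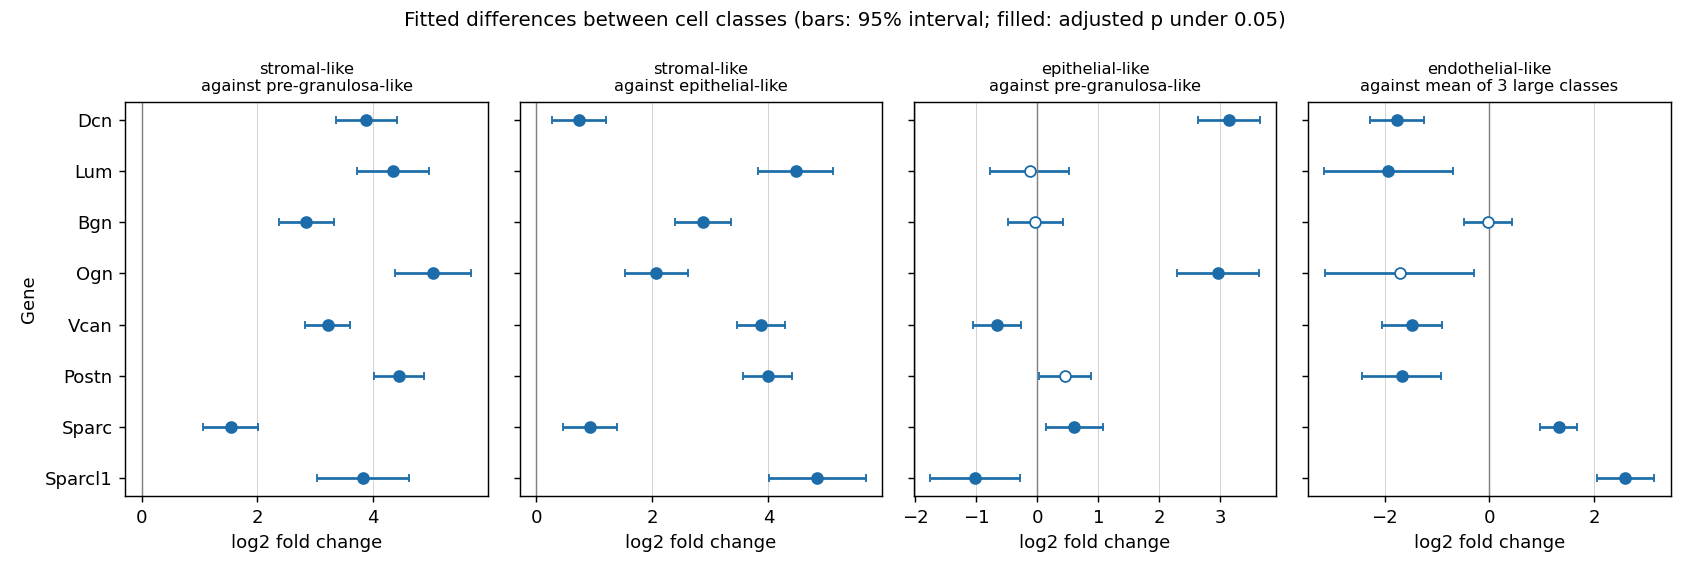
Log2 fold change of each gene with its 95% interval in 4 comparisons between classes, filled where the adjusted p was under 0.05. All 8 genes lie to the right of 0 for both stromal-like comparisons, and the comparison of epithelial-like with pre-granulosa-like cells divides them.

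Within the stroma the genes differed between clusters. The 6149 stromal-like cells formed 4 clusters, described by genes that lead them: cluster 3 (2698 cells, Pmepa1, Ngfr and Acta2), cluster 5 (1921 cells, Mki67 and histone genes of dividing cells), cluster 9 (1054 cells, Col1a1 and Ecm1) and cluster 13 (476 cells, Foxd1, Nefm, Dkk2 and Cxcl12). The identity of 3 of them is less firm than that of cluster 9. A list of 8 mural (pericyte and smooth muscle) markers scored above the stromal list in cluster 3 (1.88 against 1.43) and cluster 5 (1.97 against 1.91), and a neural crest list did so in cluster 13 (1.62 against 1.54), though the markers of those lists were in too few cells for the name. The mural markers, all 8 of them detected, summed to 301 to 416 CPM in cluster 3, 250 to 365 CPM in cluster 5, 207 to 256 CPM in cluster 9 and 219 to 243 CPM in cluster 13. Their part in the differences below was not tested.

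Decorin and lumican were highest in clusters 9 and 13. Dcn was 1158, 1158 and 1201 CPM in cluster 9, 951, 661 and 1107 CPM in cluster 13, 330, 185 and 224 CPM in cluster 5, and 84.8, 80.9 and 78.7 CPM in cluster 3. Thus decorin in cluster 3 lay below all 4 epithelial-like clusters, whose means ran from 161.5 to 242 CPM. Lum was 287, 217 and 341 CPM in cluster 9, 196, 114 and 256 CPM in cluster 13, 78.1, 44.1 and 58.2 CPM in cluster 5 and 12.2, 8.04 and 12.7 CPM in cluster 3, so the ranges of clusters 9 and 13 overlapped and those of clusters 5 and 3 did not. After thinning, 77.8%, 78.1% and 86.8% of cluster 9 cells had a UMI of Dcn, against 19.0%, 17.4% and 16.4% of cluster 3 cells.

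Osteoglycin and periostin were highest in cluster 13. Ogn was 81.8, 88.6 and 97.2 CPM there, 42.1, 33.6 and 26.6 CPM in cluster 9 and at most 7.73 CPM in a lot of clusters 3 and 5. Postn was 354, 288 and 323 CPM in cluster 13, 119, 134 and 173 CPM in cluster 9, 71.7, 50.1 and 73.9 CPM in cluster 5 and 34.0, 26.9 and 35.7 CPM in cluster 3. Neither gene's lots overlapped between cluster 13 and any other stromal-like cluster. Among epithelial-like cells Ogn was also uneven, with 21, 13.1 and 13 CPM in cluster 10 and at most 4.84 CPM in a lot of the other 3 clusters.

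Sparcl1 ran the other way. It was 547, 490 and 548 CPM in cluster 3, 399, 316 and 470 CPM in cluster 5, 337, 319 and 416 CPM in cluster 9 and 116, 92.7 and 130 CPM in cluster 13. The lots of cluster 3 lay above, and those of cluster 13 below, all others. Vcan was highest in cluster 9 at 406, 407 and 371 CPM, against 171, 221 and 135 CPM in cluster 13, 144, 135 and 115 CPM in cluster 5 and 66.2, 45.2 and 64.9 CPM in cluster 3. Bgn and Sparc were nearly even: Bgn ranged from 142 to 233 CPM and Sparc from 1374 to 2075 CPM over the 4 clusters and 3 lots.

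Each cluster was tested against the mean of the other 3 in edgeR (quasi-likelihood, p adjusted over 12072 genes). In cluster 13, 4 members were higher and 1 lower, where 18.6% of all genes were called, 9.19% higher and 9.45% lower. Ogn was higher by 3.34 on the log2 scale (SE 0.20, adjusted p = 2.7e-08), Postn by 2.17 (SE 0.11, adjusted p = 8e-11), Lum by 1.61 (SE 0.23, adjusted p = 8.4e-04) and Dcn by 1.56 (SE 0.14, adjusted p = 1.9e-06). Sparcl1 was lower, at -1.99 (SE 0.12, adjusted p = 7.8e-10). Vcan (0.19, adjusted p = 0.432), Bgn (-0.17, adjusted p = 0.347) and Sparc (-0.06, adjusted p = 0.705) were not called, and Vcan passed the threshold once called doublets were left out (0.37, adjusted p = 0.032). Scrublet called 11%, 3.76% and 20.8% of cluster 13 doublets, and its pre-granulosa markers summed to 464 to 981 CPM against 5400 to 5814 CPM in pre-granulosa-like cluster 1. With called doublets left out, Dcn in cluster 13 was 1049, 694 and 1380 CPM and Lum 235, 121 and 315 CPM, values not below those with them.

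Cluster 3 had the reverse of that pattern. Sparcl1 (1.19, SE 0.10, adjusted p = 2.6e-08) and Sparc (0.35, SE 0.08, adjusted p = 0.00204) were higher there, and Lum (-3.60), Dcn (-2.85), Ogn (-2.78), Postn (-2.03) and Vcan (-1.71) were lower, each with adjusted p of at most 1.1e-05, where 30.9% of all genes were called, 15.4% in each direction. Bgn differed by -0.01 (95% interval -0.23 to 0.20). In cluster 9, Lum (2.39), Dcn (2.07), Vcan (1.74), Ogn (1.49) and Postn (0.60) were higher and Sparc was lower (-0.40, adjusted p = 0.00116), where 26.5% of all genes were called, 12.7% higher and 13.8% lower. In the dividing cells of cluster 5, Sparcl1 was higher (0.58, adjusted p = 2.5e-04) and Ogn (-2.05), Dcn (-0.78) and Postn (-0.73) were lower, where 24.7% of all genes were called, 14.3% higher and 10.4% lower. No cluster differed in Bgn without the block, and with it the difference in cluster 13 was -0.16 (adjusted p = 0.0329).

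**Figure D4:**
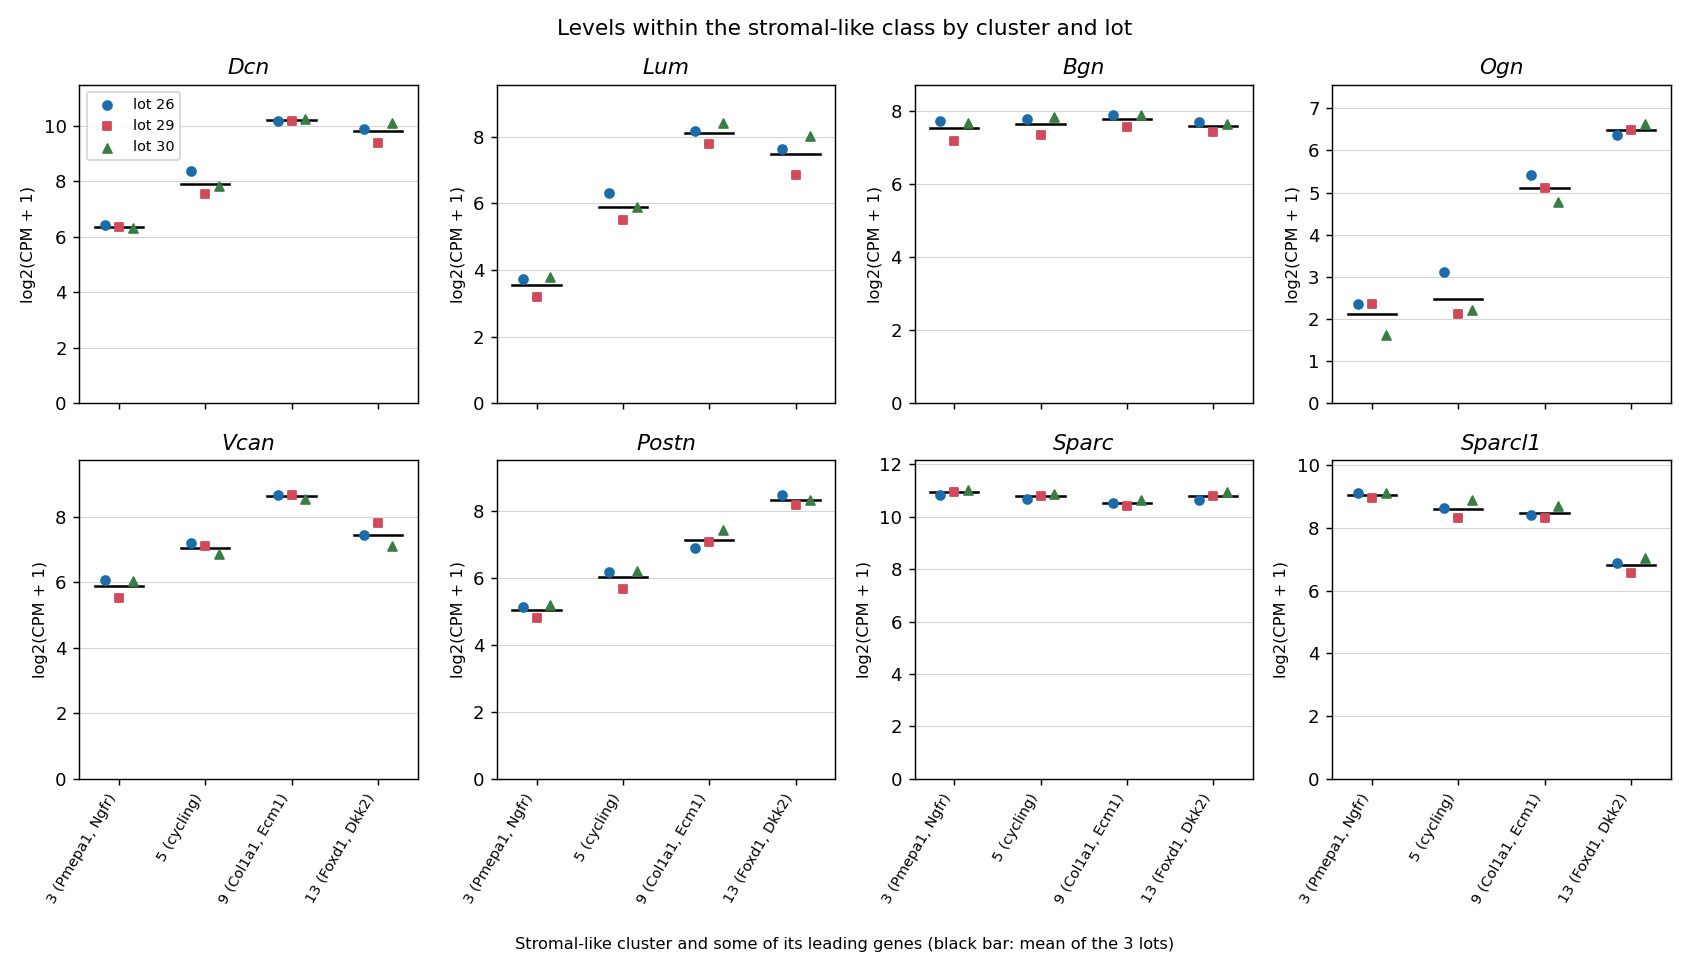
Level of each gene, as log2(CPM + 1), in the 4 stromal-like clusters, with 1 marker per lot and the mean as a black bar. Dcn and Lum are highest in clusters 9 and 13, Ogn and Postn in cluster 13, Sparcl1 in cluster 3, and Bgn and Sparc are nearly level.

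The genes were also counted together in single cells. Among 6004 stromal-like cells thinned to 4000 UMIs, Lum was found in 36.8% ± 3.06 of cells with a UMI of Dcn and in 2.55% ± 0.568 of cells without (SD, n = 3 lots). Dcn was found in 62.9% ± 4.30 of cells with Postn and in 30.9% ± 3.06 of those without, and inside clusters 3, 5, 9 and 13 the shares were 21.5% against 17.2%, 55.2% against 29.9%, 91.6% against 76.0% and 78.6% against 64.1%. Ogn was found in 10.1% ± 2.14 of cells with Postn and 3.01% ± 0.610 of those without, but inside clusters 3, 5, 9 and 13 the shares were 1.24% against 1.05%, 4.62% against 1.22%, 9.27% against 9.67% and 25.9% against 21.7%. Most of the gap over the whole stroma was thus between clusters. For Sparcl1 the shares were 46.5% ± 7.20 of cells with Ogn and 65.2% ± 8.29 of those without, and inside the same clusters 89.1% against 71.5%, 43.1% against 65.3%, 55.4% against 62.0% and 27.6% against 29.9%, so the direction was reversed in cluster 3, where only 28 cells had Ogn. Inside each cluster Lum was found more often in cells with Dcn than in those without: 13.9% against 1.51% in cluster 3, 35.9% against 2.17% in cluster 5, 47.6% against 11.4% in cluster 9 and 47.6% against 18.1% in cluster 13. Sparcl1 was found in 61.6% ± 5.41 of stromal-like cells with Dcn and 66.1% ± 9.76 of those without, and inside clusters 3, 5, 9 and 13 the shares were 76.9% against 70.6%, 62.6% against 66.5%, 64.6% against 50.4% and 33.0% against 14.8%, higher with Dcn in all but cluster 5. These shares are descriptions of cells that share a library.

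Endothelial-like cells that escaped the CD31 depletion (175, 88 and 88 cells) were set against the mean of the 3 large classes. Sparcl1 was higher there by 2.60 on the log2 scale (SE 0.28, adjusted p = 5.4e-07) and Sparc by 1.33 (SE 0.18, adjusted p = 1.6e-06), where 40.7% of all genes were called, 19.4% higher and 21.3% lower. Dcn (-1.76), Postn (-1.67), Vcan (-1.48) and Lum (-1.93, adjusted p = 0.0195) were lower, and Bgn differed by -0.03 (adjusted p = 0.949). That mean includes the stroma. Endothelial-like Bgn was 47.1 ± 14.8 CPM, with every lot above those of epithelial-like (25.7 ± 3.71) and pre-granulosa-like cells (25.1 ± 4.58). Dcn was 32.2 ± 15.2 CPM, against 195 in epithelial-like and 21.2 in pre-granulosa-like cells. Lots of Dcn, Lum, Postn and Vcan overlapped those of pre-granulosa-like cells. The call of Lum was lost without lot 30 (-1.60, adjusted p = 0.107). Ogn had 3, 0 and 2 UMIs in the lots' endothelial-like cells and was not called (-1.71, adjusted p = 0.0633), but it was with the lot as a block (-1.79, adjusted p = 0.0325). Between 11.4% and 22.7% of these cells were called doublets.

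Germ-like cells that escaped the SSEA1 depletion, whose shares served as a background level above, were also set against the mean of the 3 large classes. That mean includes the stroma. The 8 genes were below the mean of the large classes, from -2.81 for Dcn to -1.55 for Lum, with adjusted p of at most 4.2e-04, where 38.6% of all genes were called higher and 38.1% lower. Dcn in germ-like cells was 19.1, 7.31 and 19.6 CPM and Sparc 234, 183 and 261 CPM, with lot 29 lowest for both. In CPM, germ-like lots overlapped those of pre-granulosa-like cells for Dcn, Lum, Ogn and Postn, and lay below them for Bgn, Vcan, Sparc and Sparcl1. CPM is relative to depth, and median depths were 18134 to 23584 UMIs in germ-like cells. In cluster 0, the largest pre-granulosa-like cluster, they were 9082.5 to 11721 UMIs. Shares of cells with a UMI before thinning overlapped between these classes for Bgn, Vcan and Sparcl1, and were lower in germ-like cells for Sparc (90.1% against 97.1%). The part of depth and free RNA in this order and in the differences above was not tested. Mean Ogn was 0.773 CPM in germ-like and 0.403 CPM in pre-granulosa-like cells.

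Fibrillar collagens, to which decorin and lumican bind, were counted beside the members. Of 10 collagen fibril genes, 9 were higher and 1 lower in stromal-like than in pre-granulosa-like cells, and all 10 were higher than in epithelial-like cells, with medians of 2.38 and 2.35 on the log2 scale. Of all genes tested, 23% were higher and 26.2% lower in the former comparison and 17.5% and 14.3% in the latter. Col1a2 was 672 ± 51.4 CPM in stromal-like, 117 ± 14.7 in epithelial-like and 34.3 ± 11 in pre-granulosa-like cells (SD, n = 3), and Col1a1 was 441 ± 56.4, 85.4 ± 30.6 and 20.6 ± 7.56 CPM. Col3a1 was 656 ± 85.2, 260 ± 60.7 and 94.7 ± 20.6 CPM. Within the stroma, 7 of the 10 were higher in cluster 13, 8 were higher in cluster 9 and 7 were lower in cluster 3, beside 9.19%, 12.7% and 15.4% of all genes.

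Relatives of the small proteoglycans did not all follow the stroma. Of 14 other family genes, 7 passed the filter on low counts, and 6 were higher and 1 lower in stromal-like than in pre-granulosa-like cells, but 3 were higher and 2 lower than in epithelial-like cells, beside 23% and 26.2%, and 17.5% and 14.3%, of all genes. Fmod (fibromodulin) was highest of these classes in the epithelial-like, with 15.8 ± 3.82 CPM there against 3.51 ± 0.717 in stromal-like and 1.1 ± 0.362 in pre-granulosa-like cells (stromal-like against epithelial-like -2.20, SE 0.27, adjusted p = 2.4e-07). Chadl was lower in the stroma than in pre-granulosa-like cells (-1.95, SE 0.27, adjusted p = 1.1e-06), and Tsku was higher (1.56, SE 0.26, adjusted p = 8e-06).

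The genes next to Dcn, Lum and Ogn were read at low levels. In stromal-like cells Kera was 0.496 ± 0.104 CPM and Epyc 2.22 ± 0.611 CPM beside Lum on chromosome 10, and Ecm2 was 2.27 ± 0.557, Aspn 2.20 ± 0.409 and Omd 0.332 ± 0.143 CPM beside Ogn on chromosome 13 (SD, n = 3). Aspn was higher in stromal-like cells than in pre-granulosa-like (4.26, SE 0.44, adjusted p = 8.5e-09) and epithelial-like cells (1.84, SE 0.37, adjusted p = 0.00029). Within the stroma, Epyc (4.44, SE 0.32, adjusted p = 7.6e-09) and Aspn (2.02, SE 0.38, adjusted p = 0.0008) were higher in cluster 13, as Ogn and Lum were, and Ecm2 was not called (-2.11, SE 0.90, adjusted p = 0.119). Kera and Omd did not pass the filter. These genes are named for their position and were picked with values known.

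Versican is cleaved by proteases of the ADAMTS family. Of 7 such proteases, 4 were higher and 1 lower in stromal-like than in pre-granulosa-like cells, and 4 higher and 0 lower than in epithelial-like cells. The shares over all genes were 23% higher and 26.2% lower, and 17.5% and 14.3%. Adamts5 was 21.6 ± 1.13 CPM in stromal-like, 3.84 ± 0.792 in epithelial-like and 1.1 ± 0.259 in pre-granulosa-like cells (4.14 against pre-granulosa-like, SE 0.26, adjusted p = 1.8e-13), and Adamts9 was 49.7 ± 1.22, 14.7 ± 1.4 and 25.1 ± 0.850 CPM. Adamts1 was 123 ± 33.5, 84.7 ± 31.2 and 114 ± 28.3 CPM and was called in neither comparison (-0.01, adjusted p = 0.994, and 0.48, adjusted p = 0.45). Of 6 tested within the stroma, 5 were higher in cluster 13 and 6 lower in cluster 3, beside 9.19% and 15.4% of all genes.

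Of 13 genes of hyaluronan, its receptors, link proteins and the other lecticans, 8 were tested, with 5 higher and 2 lower in stromal-like than in pre-granulosa-like cells and 4 higher and 1 lower than in epithelial-like cells, where all genes gave 23% and 26.2%, and 17.5% and 14.3%. Hapln1, a link protein that fixes versican to hyaluronan, was 19.3 ± 0.252 CPM in stromal-like, 4.20 ± 0.518 in epithelial-like and 3.50 ± 0.403 CPM in the pre-granulosa-like class, while endothelial-like cells had 99.6 ± 42.2 CPM. Cd44, a hyaluronan receptor, was lower in the stroma than in pre-granulosa-like cells (3.77 ± 0.602 against 20.3 ± 5.44 CPM, log2 difference -2.52, SE 0.27, adjusted p = 2.3e-08). Hmmr, which is also a gene of dividing cells, was 89.1 ± 5.21 CPM in stromal-like, 86.6 ± 4.51 in epithelial-like and 1.60 ± 0.198 in pre-granulosa-like cells.

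The chondroitin and dermatan sulfate chains of these proteoglycans are built by a set of enzymes. Of 22, 20 were tested, and 8 were higher and 3 lower in stromal-like than in pre-granulosa-like cells, with a median of 0.36 on the log2 scale, and 12 higher and 0 lower than in epithelial-like cells, with a median of 0.47. Over all genes, 49.2% were called against pre-granulosa-like cells (23% higher, 26.2% lower), and 17.5% were higher and 14.3% lower against epithelial-like cells. Csgalnact1, which starts the chain's repeats, was lower in the stroma than in pre-granulosa-like cells (21.7 ± 1.82 against 71.6 ± 1.93 CPM, log2 difference -1.83, SE 0.17, adjusted p = 4.9e-10). B3gat3 (41.6 ± 0.962 CPM in stromal-like cells) and B3galt6 (24.6 ± 0.276 CPM), which make the linker to the core protein, were called in neither comparison.

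Among other genes of the SPARC family, 2 of 4 tested were higher and 2 lower in stromal-like than in pre-granulosa-like cells, and 3 higher and 1 lower than in epithelial-like cells, set beside 23% and 26.2%, and 17.5% and 14.3%, of all genes. Fstl1 was 262 ± 15.8, 108 ± 4.60 and 104 ± 13.5 CPM in stromal-like, epithelial-like and pre-granulosa-like cells (1.22 against pre-granulosa-like, SE 0.22, adjusted p = 5.7e-05). Smoc1 and Smoc2, close paralogs, ran opposite ways, with 11.3 ± 2.50 against 73.6 ± 7.49 CPM for Smoc1 (-2.80, SE 0.19, adjusted p = 4.2e-12) and 23.7 ± 10.1 against 1.60 ± 0.512 CPM for Smoc2 (3.81, SE 0.37, adjusted p = 4.9e-08) in stromal-like against pre-granulosa-like cells.

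Of 17 other matricellular genes, 10 were tested, with 4 higher and 1 lower in stromal-like than in pre-granulosa-like cells and 5 higher and 0 lower than in epithelial-like cells. The 5 of 10 called against pre-granulosa-like cells were near the 49.2% called over all genes (23% higher, 26.2% lower), and 17.5% of all genes were higher and 14.3% lower against epithelial-like cells. Tgfbi, the paralog of periostin, was 307 ± 41.2, 61.7 ± 3.44 and 70.5 ± 12 CPM in stromal-like, epithelial-like and pre-granulosa-like cells (2.01 against pre-granulosa-like, SE 0.23, adjusted p = 9.6e-08). Unlike Postn it was lower in cluster 13 than in the other stromal-like clusters (-0.34, SE 0.10, adjusted p = 0.0182). Cyr61, an immediate early gene, was 371 ± 226 CPM in the stroma and was called in neither comparison.

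The genes whose levels most resembled each member were ranked by Pearson's r of log2(CPM + 1) over 62 sums of a cluster and lot, among 11849 genes. These sums share libraries, clusters and depth, so r is a description only. For Dcn they were Col1a1 (0.853), Adamtsl1 (0.846) and Sema3d (0.825), for Lum Spon1 (0.881), for Bgn Islr (0.921), Kdelr3 (0.919) and Snai1 (0.9), and for Ogn Ddr2 (0.878), Spon2 (0.867) and Fap (0.864). Vcan was most like Kcnd3 (0.870), Ncam1 (0.860) and Fat3 (0.839), and Postn like Fap (0.9), Foxp2 (0.868) and Col1a1 (0.854). Sparc was most like Serpinh1 (0.915), which encodes a collagen chaperone, Rcn1 (0.892) and Fkbp7 (0.881), and Sparcl1 like Rftn2 (0.836), 1810011O10Rik (0.824) and Emilin1 (0.818). Between members, Ogn and Postn were the most alike (0.830), followed by Bgn and Sparcl1 (0.811), and Ogn and Sparcl1 the least (0.399).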

How the data were processed

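The deposited tables hold whole-number UMI counts per gene and cell, which the authors made from 10X Genomics 3' libraries with UMI-tools, STAR 2.7 and featureCounts 2.0.1 (Subread) on GRCm38, keeping uniquely mapped reads. The annotation release and strand setting are not given in the sources used here. Lots held 87494974 to 141920060 UMIs in 8567 to 10773 barcodes. Barcodes with 200 to 9000 genes and at most 10% mitochondrial UMIs were kept. Counts were clustered in Seurat 5.3.0 (R 4.3.3; LogNormalize, 1967 variable genes, 50 components, resolution 0.8) with 97 matrix genes held out, and the 22 clusters were named from 12 marker lists, where a list qualified with a score of 1 or more, 3 raised markers and 2 markers in 60% of cells, and the best qualifying list gave the name if it led the next qualifying list by 0.25 (a list that did not qualify could score higher).

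UMI sums per class and lot (8 classes with enough cells, Sertoli-like and unnamed cells left out) or per stromal-like cluster and lot entered edgeR 4.0.16 with TMM scaling, the filterByExpr filter and the quasi-likelihood test, and p was adjusted by Benjamini-Hochberg across every gene tested, with calls at 0.05. Lots are separate pools of embryos, and each class compared was present in every lot. The reported fit does not pair classes by lot, so its SE and adjusted p leave that pairing out. All 8 members passed the low-count filter. On simulated data for the comparison of stromal-like with pre-granulosa-like cells, run on 13025 genes, the test recovered 183 of 200 changed genes (91.5%) with 2.66% false calls. For cluster 13 against the other stromal-like clusters it recovered 88% with 4.86% false calls. The simulated sums had 1 common dispersion, no lot effect and no folds as small as that of Dcn between stromal-like and epithelial-like cells. These rates are thus not error rates of the data. Sums of 1 lot come from the same pool and are paired by construction: r between their deviations had a median of 0.296 in 84 pairs of class sums (64 over 0.1) and 0.491 in 18 pairs of stromal cluster sums (18 over 0.1). The reported fit has no lot term, and a fit with lots as a replicate block was the alternative. Doublets were called by Scrublet in scanpy 1.11.5 (expected rate 8%) and kept. Leading genes of lists were named as the 3 with the highest mean CPM among those tested, and the genes most like a member as the 3 with the highest r, of which some are not reported here. The members and lists were chosen with earlier results of these data known. Tried as alternatives were DESeq2 1.42, other normalization and filters, other clusterings, doublets removed and each lot left out. The removal of cluster 16, of cells with Y-linked UMIs and of doublets from kept stromal clusters was added after the data were seen. Positions are from GENCODE M21 and promoters from RefSeq.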

Additional observations from a re-analysis of the deposited data

How the results depend on the processing

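The 8 genes gave 896 log2 fold changes under the alternatives. Of these, 852 kept their side of the threshold, 24 lost the call, 16 gained it and 4 turned, a change of sign with a call in either fit. The 852 include uncalled values that changed sign, such as Bgn in epithelial-like against pre-granulosa-like cells (-0.09 to 0.20 over all settings). The 4 that turned were all Lum in epithelial-like against pre-granulosa-like cells: 1.18 at resolution 0.4, 0.79 with doublets removed, 1.07 with the loose cell filter and 1.19 without cluster 16, which was chosen after seeing the data. With the lot as a replicate block, the genes called rose from 4403 to 7021 for stromal-like against epithelial-like cells, from 2250 to 3390 for cluster 13, from 3726 to 5597 for cluster 3 and from 2982 to 4971 for cluster 5. The block also gave the calls of Postn in epithelial-like cells, Ogn in endothelial-like cells (-1.79, adjusted p = 0.0325) and, within the stroma, Sparcl1 in cluster 9 (0.22, adjusted p = 0.00311), Sparc in cluster 5 (0.11, adjusted p = 0.00497) and Bgn in cluster 13.

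With each lot left out in turn, genes called numbered 5051 to 6691 for stromal-like against pre-granulosa-like cells (6809 with all lots), 2653 to 4416 against epithelial-like cells, 4265 to 5822 for epithelial-like against pre-granulosa-like cells (6062), 3528 to 5418 for endothelial-like cells (5627), 9400 to 10683 for germ-like cells (10613), 1320 to 1812 for cluster 13, 2174 to 3280 for cluster 3, 1513 to 2342 for cluster 5 and 1636 to 2669 for cluster 9 (3201). Leaving out lot 26 moved the count by over 1.5 times for endothelial-like cells (3528) and clusters 13 (1320), 3 (2174), 5 (1779) and 9 (1738), and leaving out lot 30 did so for stromal-like against epithelial-like cells (2653) and clusters 13 (1328), 3 (2374), 5 (1513) and 9 (1636), with fewer sums in each fit. Depth limits Ogn most, since endothelial-like cells held 0 to 3 of its UMIs per lot.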
